A study of Caenorhabditis elegans with 2 samples.

Results

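The regions described here are 1502 sites that lay just below the reproducibility threshold in a chromatin immunoprecipitation sequencing (ChIP-seq) experiment on the protein ZK546.5 in the nematode Caenorhabditis elegans. They were chosen by pooled signal: the authors' pooled list of 30000 regions was sorted by signal, the 491 strongest and everything after rank 2000 were set aside, and 7 of the 1509 regions between were left out because they overlapped a thresholded region. The remaining 1502 are called members below. The 491 regions that the authors kept at their threshold, which were also the 491 strongest, are called thresholded, and the 27967 regions of ranks 2001 to 30000 that overlap no thresholded region are called lower ranks. Both replicates came from 1 transgenic line, strain OP231 with the genotype unc-119(ed3) III; wgIs231, in which ZK546.5 carries a GFP-FLAG tag at its C-terminal end. Whole larvae of mixed sex were taken at the L2 stage, and the chromatin was sheared by sonication. The labels give 1 group with 2 biological replicates, and the control library used in peak calling was not analysed here. Sequencing depth was not stated in the sources used. No untagged or otherwise different group stands beside this line, so the values show where chromatin was recovered and not how that depended on the tag. Whole worms were used, so a site bound in few cells and a site bound weakly in many cannot be told apart.

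ZK546.5 has a C2H2-type zinc finger, a fold with which many transcription factors read DNA. The irreproducible discovery rate (IDR) compares the ranks of peaks between replicates and keeps those ranked alike near the top of both. Regions just under its threshold can hold weaker or rarer binding as well as places where reads gather without binding, and rank alone does not separate these. In worms, binding of many factors gathers in the short stretch upstream of genes, where promoters and most nearby enhancers lie.

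Because the rule used the pooled signal, and the pooled reads come from both replicates, the members' signals and their support in the replicate lists are descriptions and not tests. Members had a median pooled signal of 30, with a range of 26.5 to 45.9, and thresholded regions had a median of 74.6 with a range of 45.9 to 3450. The step at the upper limit was small. The first member had a signal of 45.909, rank 493 had 45.844 and rank 494 had 45.830, against 45.928 at rank 491, 45.956 at rank 490 and 46.031 at rank 489. The first member lay upstream of mnk-1, rank 493 upstream of epg-7 and rank 494 upstream of the non-coding gene F10G8.12. On the other side of the limit, rank 490 lay upstream of mdf-2, a spindle checkpoint gene, and rank 489 upstream of romo-1. The lower limit was as smooth. Ranks 1998, 1999 and 2000 had signals of 26.512, 26.505 and 26.493, against 26.484, 26.471 and 26.471 at ranks 2001, 2002 and 2003. Rank 2000 lay upstream of the globin gene glb-8, and rank 2002 upstream of gmn-1, the gene for geminin, which restrains the licensing of DNA replication.

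Every member was 356 bp wide with its summit at the midpoint, and together they covered 531987 bp, or 0.530% of the genome. The sequences around some of the strongest member summits are shown because the composition results below turn on 3 short words that they carry or lack. Each is the + strand of the ce11 build (WBcel235, from RefSeq), 101 bases centred on the summit, 5′ to 3′. Capitals mark GCGTCTC (on the other strand GAGACGC), the word CGCGC (on the other strand GCGCG) and the word GAGAGA (on the other strand TCTCTC). The first 6 lie upstream of annotated 5′ ends and were among the strongest 2000 regions of both replicates. The last pair lies in introns.
mnk-1, chrII:10548969-10549069: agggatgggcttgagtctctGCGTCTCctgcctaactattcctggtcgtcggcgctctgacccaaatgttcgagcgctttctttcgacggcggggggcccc
epg-7, chrX:7334468-7334568: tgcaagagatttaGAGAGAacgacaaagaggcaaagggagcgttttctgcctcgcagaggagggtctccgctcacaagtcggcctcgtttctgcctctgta
C37H5.5 and hsp-6, chrV:4827167-4827267: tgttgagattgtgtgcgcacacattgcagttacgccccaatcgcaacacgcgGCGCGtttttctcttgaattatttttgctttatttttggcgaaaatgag
W02B12.11 and metl-1, chrII:11473757-11473857: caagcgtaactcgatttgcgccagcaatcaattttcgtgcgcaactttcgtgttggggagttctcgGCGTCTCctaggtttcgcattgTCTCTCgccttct
lin-23, chrII:6370293-6370393: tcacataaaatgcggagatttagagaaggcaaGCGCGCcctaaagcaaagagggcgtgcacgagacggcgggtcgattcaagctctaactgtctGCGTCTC
rpl-9 and lpd-7, chrIII:7573012-7573112: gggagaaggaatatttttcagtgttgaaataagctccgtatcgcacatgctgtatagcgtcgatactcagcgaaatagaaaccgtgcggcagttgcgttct
larp-1 intron, chrIII:5014100-5014200: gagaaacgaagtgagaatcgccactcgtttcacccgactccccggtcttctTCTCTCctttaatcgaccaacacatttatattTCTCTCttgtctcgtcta
usp-39 intron, chrII:2570606-2570706: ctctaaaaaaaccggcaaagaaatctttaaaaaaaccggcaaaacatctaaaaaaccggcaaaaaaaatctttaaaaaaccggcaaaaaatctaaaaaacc
The window upstream of mnk-1 was the richest in G and C of these, at 61.4%, and the usp-39 window the poorest, at 29.7%. The rpl-9 window holds none of the 3 words although both replicates ranked it high. In the usp-39 window the word AAAAAA starts at 11 positions, within short stretches that recur along it.

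The strongest members lay next to genes of many functions. The member upstream of mnk-1, which encodes a kinase that acts on the cap-binding translation factor eIF4E, had its summit just before an annotated transcript start that lies inside the gene (position -96, in bp from that 5′ end, where negative values are upstream). Its signal was 30.2 in replicate 1 (rank 477 of that replicate's list) and 23.9 in replicate 2 (rank 398). Signals are the authors' own and their scale was not given in the sources used, so ranks and not signals are compared between replicates. The member upstream of epg-7, an autophagy scaffold gene, stood at rank 1014 in replicate 1 and rank 507 in replicate 2 with its summit at position -196. A member between C37H5.5 and hsp-6, the gene for the mitochondrial HSP70 chaperone, stood at ranks 635 and 426. Ranks 630 and 470 belonged to a member in the windows of dnj-28, which encodes a DnaJ-type co-chaperone, and supr-1. A member in the windows of W02B12.11 and metl-1, a tRNA methyltransferase gene, stood at ranks 1226 and 909. The lin-23 member lay at position -960 of a gene whose F-box protein directs a ubiquitin ligase that limits cell division, and at position -466 of the non-coding gene linc-27. It stood at ranks 730 and 388.

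The other strong members show how unequal the replicates could be. Upstream of syd-2, the liprin-alpha gene of presynaptic assembly, the member ranked 346 in replicate 1 and 6485 in replicate 2. That in an intron of larp-1, a La-related RNA-binding protein gene, ranked 315 in replicate 1 and 8495 in replicate 2. The ttc-37 member, at a tetratricopeptide repeat gene, ranked 410 and 8988. All 3 ranked far higher in replicate 1 than in replicate 2, but other strong members went the other way. A member in an intron of mnk-1 ranked 2444 in replicate 1 and 430 in replicate 2, and that upstream of ekl-6 ranked 12703 and 478. The list of replicate 2 is the longer one, so no direction is read from these examples. In contrast, the usp-39 intron member ranked 626 and 666, and that upstream of mct-5, a gene of the monocarboxylate transporter family, ranked 813 and 513.

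Members were found in promoter windows more often than lower-ranked regions and less often than thresholded ones. Promoter windows were set around each annotated 5′ end, coding or not, with 1000 bp before it and 200 bp after it. They held the summit of 895 of 1502 members, or 59.6% (exact 95% interval 57.1 to 62.1), against 86.6% of thresholded regions and 41.0% of lower ranks. Such windows take up 38.6% of the genome, so the lower ranks stood close to that share. The intervals cover counting error only, since regions are not replicates. Of the members, 702 (46.7%) had their summit in the window of a coding gene, against 79.6% of thresholded regions and 28.6% of lower ranks.

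The remaining members lay mostly in introns and between genes. Introns held 255 members, or 17.0%, against 2.85% of thresholded regions and 29.1% of lower ranks. Intergenic sequence held 215 members, or 14.3%, against 8.55% of thresholded regions and 15.6% of lower ranks. Coding exons held 69 members, or 4.59%, against 0.815% of thresholded regions and 10.4% of lower ranks, while coding exons outside promoter windows make up 17.1% of the genome. In 3′ UTRs there were 50 members, or 3.33%, against 0.204% of thresholded regions and 2.85% of lower ranks. The 5′ UTR class held 8 members and exons of non-coding transcripts held 10.

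The promoter share fell with rank within the members. It was 77.6% of the 255 members down to rank 750, 64.9% of the 248 at ranks 751 to 1000, 55.7% of the 499 at ranks 1001 to 1500 and 51.6% of the 500 at ranks 1501 to 2000. Among ranks 2001 to 4000 it was 46.2%. The intron share went the other way over the same 5 bands, at 8.24%, 12.9%, 20%, 20.4% and 26.0%. The promoter shares of all 4 bands of members lay below that of the thresholded regions and above that of the lower ranks. When the same ranks were taken from 1 replicate's own list, without regions that overlapped thresholded ones, the promoter share was 52.1% for replicate 1 and 53.6% for replicate 2, below the 59.6% of the pooled ranks.

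**Figure D1:**
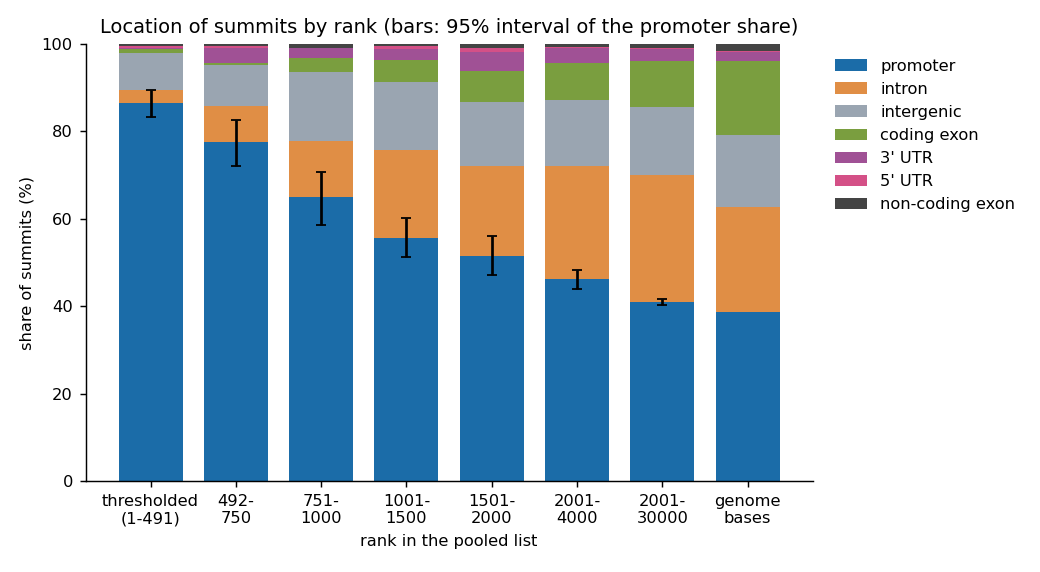
Share of summits in each location class (y axis, %) for thresholded regions, for 4 bands of members, for 2 sets of lower ranks and for the bases of the genome (x axis, pooled rank). Error bars are exact 95% intervals of the promoter share, which fell with rank, at 77.6% in the first and 51.6% in the last band of members.

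The promoter windows limit positions to between 1000 bp before and 200 bp after a 5′ end, so positions within them are compared only between sets of regions. In the windows of coding genes, the median summit of a member was at position -252 (quartiles -505 and -105), against -234 for thresholded regions and -352 for lower ranks. The summit was upstream of the 5′ end for 89.3% of the member genes, 96.9% of the thresholded genes and 85.0% of the genes of lower ranks. Over all regions, 29.7% of members lay within 500 bp upstream of the nearest coding 5′ end, against 67.9% of thresholded regions on nuclear chromosomes and 13.4% of lower ranks. Farther than 2000 bp from any coding 5′ end were 24.8% of members, 10.2% of thresholded regions and 34.2% of lower ranks. Members upstream of coding genes on both strands, that is in divergent promoters, numbered 152 of 702, or 21.7% (18.7 to 24.9), against 41.2% of thresholded and 7.88% of lower-ranked regions with a coding gene.

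**Figure D2:**
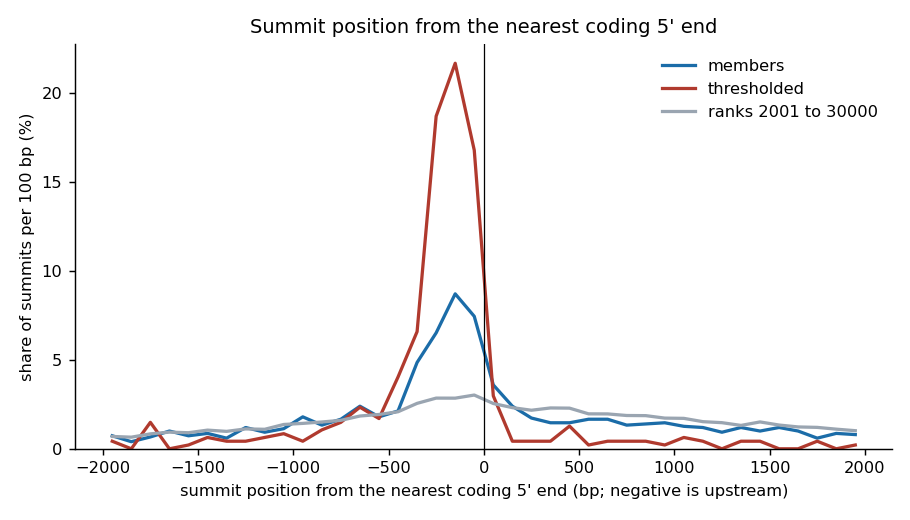
Position of the summit from the nearest coding 5′ end (x axis, bp, negative is upstream) as the share of summits per 100 bp (y axis, %), for members, thresholded regions and ranks 2001 to 30000. The members peak in the same stretch upstream of the 5′ end as the thresholded regions but lower, with 29.7% of members within 500 bp upstream against 67.9% of thresholded regions.

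Some members were strongest in their class outside promoters. The strongest 4 in 3′ UTRs were in K08D12.4, mom-5, mdt-15 and cts-1. Those of mdt-15, a Mediator subunit gene of lipid metabolism, and cts-1, the citrate synthase gene, were supported by both replicates at ranks 573 and 1066 and at ranks 413 and 878. That of mom-5, a Frizzled-type Wnt receptor gene, had rank 336 in replicate 1 and no region in replicate 2. In coding exons the strongest members were in H39E23.2, C18E3.3, F09C6.10 and unc-52, the perlecan gene of the basement membrane. An intron of mdt-26, a Mediator subunit gene, held a pair of overlapping members with signals of 39.0 and 36.7. They were among the best supported of all members, but both overlapped the same region in each replicate, rank 509 in replicate 1 and rank 344 in replicate 2. The non-coding gene C30E1.9 on the X chromosome held a like pair, with pooled signals of 34.5 and 34.4 and replicate regions of ranks 411 and 334. Such overlaps were few: 40 of the 1502 members overlapped another member.

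Support in the replicates' own lists was broad when any overlap counted and thin when only strong regions counted. A region of replicate 1 overlapped 1406 members by at least 1 bp, or 93.6% (92.3 to 94.8), against 99.8% of thresholded regions and 47.2% of lower ranks. A region of replicate 2 overlapped 1347 members, or 89.7% (88.0 to 91.2), against 99.4% of thresholded regions and 53.2% of lower ranks. Both lists overlapped 1252 members (83.4%), against 99.2% of thresholded regions and 19.2% of lower ranks. Only the list of replicate 1 overlapped 154 members, only that of replicate 2 overlapped 95, and neither overlapped 1. The replicate lists are long and include background regions: that of replicate 1 has 19076 regions over 7.01% of the genome and that of replicate 2 has 30000 over 9.89%.

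Among only the strongest 2000 regions of each replicate, the picture was different. Those of replicate 1 overlapped 49.5% of members, those of replicate 2 overlapped 33.3%, and both overlapped 200 members, or 13.3% (11.6 to 15.1). Of thresholded regions 93.1% had such support, and of ranks 2001 to 4000 0.702% had it. Among members with a region in the list concerned, the median rank was 1842 in replicate 1 (1406 members) and 3181 in replicate 2 (1347 members). By band of pooled rank, the share of members in the strongest 2000 of both was 46.7%, 18.5%, 5.01% and 2.00%. Only 3 members overlapped the strongest 491 regions of both replicates. These were the member upstream of mnk-1 and the overlapping pair in C30E1.9. The supported members were nearly all distinct: the 1406 members with support in replicate 1 overlapped 1385 regions as their best match, and the 1347 in replicate 2 overlapped 1329.

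**Figure D3:**
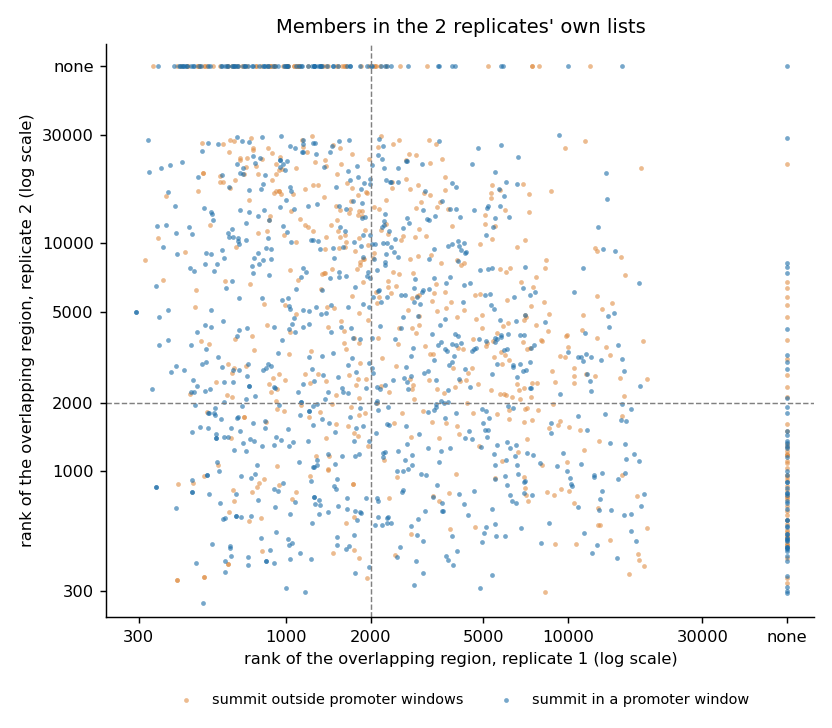
Rank of the best overlapping region in replicate 1 (x axis) and in replicate 2 (y axis), both on log scales, for each member. Dashed lines mark rank 2000 in each list, points at none had no overlapping region, and colours separate the 895 members in promoter windows from the rest. The 200 members in the lower left were among the strongest 2000 of both replicates.

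Within the 1252 members found in both lists, signals of the replicates ran slightly opposite (Spearman correlation -0.14), whereas within 487 thresholded regions they ran together (0.75). Spearman correlations by band of members were between -0.62 and -0.44. A narrow range of pooled signal builds such an opposition in, because a region low in one replicate needs a high value in the other to enter the range. These correlations are across regions of the same 2 libraries and describe only how the members were composed. The 3 members whose ranks differed most, by the ratio of the ranks, had their better rank in replicate 1. The list of replicate 2 is the longer one and leaves room for higher ranks, so no direction is read from this. The pinn-1 member, upstream of a peptidyl-prolyl isomerase gene, ranked 326 in replicate 1 and 20626 in replicate 2. That in the windows of rpl-41.1, a large-subunit ribosomal protein gene, and M04F3.5 ranked 359 and 21481. The other, in the window of a tRNA gene (WBGene00022955), ranked 324 and 28534.

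Support and location went together. Of the 200 members in the strongest 2000 of both replicates, 71.5% (64.7 to 77.6) lay in promoter windows. The share was 58.5% for the 544 in the strongest 2000 of replicate 1 only, 65.7% for the 300 in those of replicate 2 only and 51.8% for the 411 that were in both lists but in neither strongest set. By class, 16.0% of promoter members (13.6 to 18.5) and 5.10% of intron members (2.74 to 8.56) were in the strongest 2000 of both replicates. Pooled signal also differed between these sets, with a median of 37.4 in the 200 and 28.1 in the 411, and its part in the difference was not tested. Among the best supported promoter members was that upstream of ain-1, at ranks 507 and 265. ain-1 encodes a GW182-type protein of the microRNA silencing complex. Near the top too, that upstream of rpl-13, a large-subunit ribosomal protein gene, stood at ranks 608 and 361, and that upstream of pqn-27, which encodes a protein with a glutamine- and asparagine-rich domain, at ranks 544 and 480.

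The bases at member summits were between those of thresholded and lower-ranked regions. The mean GC content of the 101 bases at the summit was 37.7% ± 10.4 (SD over 1502 members) and 35.3% in flanks centred 250 bp away. Thresholded regions on nuclear chromosomes had 48.5% ± 7.86 (SD over 470) with 36.0% in flanks, and lower ranks had 33.7% ± 8.94 (SD over 27967) with 34.9% in flanks. The genome has 35.4%. By band, the members' mean was 42.6%, 38.8%, 37.0% and 35.5%, and that of ranks 2001 to 4000 was 34.5%. Summit GC was above flank GC in 58.3% of members, 85.7% of thresholded regions and 45.1% of lower ranks.

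**Figure D4:**
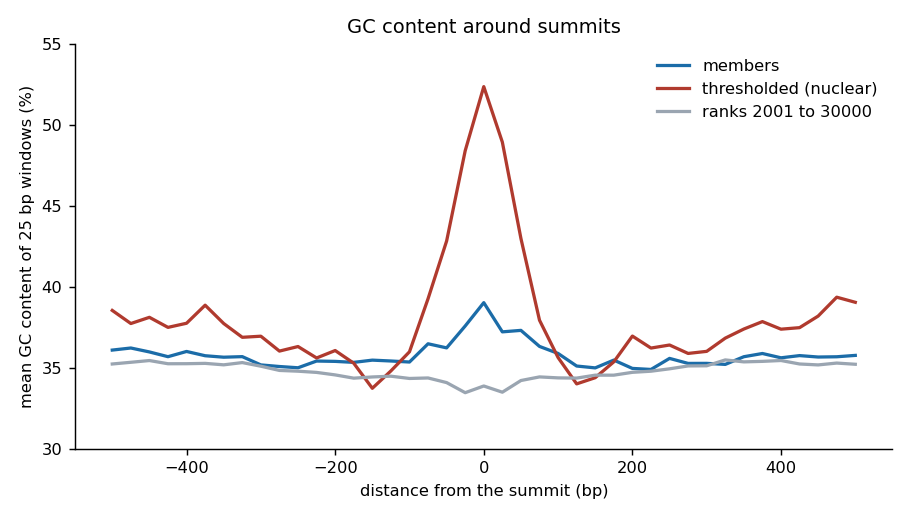
Mean GC content of 25 bp windows (y axis, %, from 30 to 55) by distance from the summit (x axis, bp) for members, thresholded regions on nuclear chromosomes and ranks 2001 to 30000. Members show a low rise at the summit, with 37.7% GC over 101 bases, where thresholded regions show a tall one with 48.5% and lower ranks a slight dip with 33.7%.

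The 3 words marked in the sequences above were more frequent at member summits than in their flanks. GCGTCTC, on either strand, was within 50 bp of the summit in 70 members (4.66%, 3.65 to 5.85) and in the flanks of 0.732%. It was found in 11.9% of thresholded and 0.976% of lower-ranked summits. CGCGC was found in 14.2% of members (12.5 to 16.1) and 5.53% of their flanks, and in 34.9% of thresholded and 4.21% of lower-ranked summits. GAGAGA was found in 13.4% of members (11.7 to 15.2) and 8.46% of their flanks, and in 21.7% of thresholded and 5.35% of lower-ranked summits. For comparison, windows of 101 bases centred 250 bp upstream of the outermost 5′ end of 19973 coding genes held these words in 1.23%, 5.33% and 6.49% of cases. The words were picked from 30 counted motifs with their frequencies known, and a match is not evidence of a bound site. GC content was higher at the same summits than in their flanks, and its part was not tested.

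At least 1 of the 3 words stood at 405 members, or 27% (24.7 to 29.3), against 54.3% of thresholded and 9.75% of lower-ranked summits. By band of rank the share was 45.1%, 37.9%, 20.6% and 18.6%, and in ranks 2001 to 4000 it was 12.1%. It was 33.2% (30.1 to 36.4) in promoter members and 17.8% (14.8 to 21.1) in members outside promoters. It was 39.0% (32.2 to 46.1) in the members that both replicates placed in their strongest 2000 and 17.0% (13.7 to 20.8) in those that neither did. Pooled signal was also higher in the first of these sets, with a median of 37.4 against 30 over all members. Because the word share fell with pooled rank as well, nothing is read from this difference, and the part of pooled signal was not tested. Intergenic and promoter members held the words in different shares: GAGAGA stood at 18.6% and CGCGC at 7.44% of intergenic members, while GAGAGA stood at 14.4% and CGCGC at 19.8% of promoter members. The difference between the classes was not tested. An intergenic member of this kind, strong by pooled signal, lay on X at position -6087 of mboa-1, its nearest coding gene. It ranked 352 in replicate 1 and 10613 in replicate 2. The word AGAGAG starts at 5 positions of its summit window.

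Of all 2080 words of 6 bases, counted with their reverse complements, the 5 with the largest excess at member summits over flanks were GACGCA (7.99% of summits), AGAGAG (11.5%), CGTCTC (8.32%), ACGCGC (6.46%) and AGACGC (6.79%). They overlap one another and the 3 words above. GACGCA was at 1.86% of member flanks, and at 20% of thresholded and 2.16% of lower-ranked summits. At the other end, TTGAAA was at 27.2% of member summits and 32.5% of flanks, and at 12.6% of thresholded and 34.5% of lower-ranked summits. Runs of TTTTTTT were at 24.6% of member summits and 25.2% of flanks, and at 8.09% of thresholded and 32.2% of lower-ranked summits.

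Repeated sequence was rare among the members. In 21 members (1.40%, 0.867 to 2.13) more than 50% of the 31-base words at the summit occurred at more than 1 place in the genome, against 1.49% of thresholded and 1.03% of lower-ranked regions. Members without these 21 had the same 13.3% in the strongest 2000 of both replicates and 59.4% in promoters. Within 50000 bp of a chromosome end lay 14 members (0.932%), against 0.426% of thresholded and 0.597% of lower-ranked regions.

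The members were spread over all 6 nuclear chromosomes. Chromosome III held 301 members, or 21.8 per Mb, and chromosome I held 285, or 18.9 per Mb. Chromosome V held 232, or 11.1 per Mb, and X held 192, or 10.8 per Mb. Per 100 coding genes this was 11.4 on III, 9.90 on I, 7.03 on X and 4.65 on V. Against thresholded regions, members were fewest on I, with 2.39 members for each thresholded region, and most on V, with 5.16. The promoter share of X members was 50% (42.7 to 57.3) and the coding promoter share 32.8% (26.2 to 39.9), while on the autosomes these shares ran from 56.8% to 68.4% and from 46.2% to 49.8%. The mitochondrial genome held 0 members and 21 thresholded regions.

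A small share of members lay near a thresholded site, though a larger one than of lower ranks. Regions that overlap a thresholded one were left out of both sets, so small shares at short distances are partly built in. Within 1000 bp of a thresholded summit lay 29 member summits, or 1.93% (1.30 to 2.76), against 0.629% of lower ranks. Within 5000 bp lay 10.6% of members and 5.17% of lower ranks. Another member was within 1000 bp of 90 members, or 5.99%. The 7 regions that the rule left out overlapped thresholded regions by at least 123 bp.

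Members and thresholded regions were mostly at different genes. A member summit lay in the promoter window of 876 of 19985 coding genes, or 4.38%, and a thresholded summit in that of 578. Both kinds of summit were found at 18 genes, or 2.05% of the member genes and 3.11% of the thresholded genes, and 858 genes had a member and no thresholded summit. The second share is near the 4.38% of all coding genes with a member, and the rule left out regions that overlap thresholded ones, so a small overlap is partly built in and nothing is read from it. Among the 18 were din-1, which encodes a nuclear co-repressor, and vps-25, a subunit gene of an endosomal sorting complex. The din-1 gene had 3 members, the most of any gene, the strongest with a signal of 37.3, beside a thresholded region of 63.2. In all, 23 genes had 2 or more members. The widest gaps between both kinds were at pfd-1, a prefoldin subunit gene, with a member of 27.3 and a thresholded region of 1480, and at tmem-107, with 32.7 and 1660. The member upstream of spk-1, an SR protein kinase gene, had 37.1 beside a thresholded region of 910. Of the 702 members in coding promoter windows, 187 stood in the windows of 2 or more coding genes, and which of these genes a member belongs to was not determined.

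Most lists of broadly used cell machinery had members at shares over the 4.38% of all coding genes. The 40 lists behind these counts take genes by their symbols and were chosen with earlier results of these data known, so the counts are descriptions. Of 62 splicing factor genes, 16 had a member (25.8%, 15.5 to 38.5), and 8 other genes of that list had a thresholded summit. Its strongest members lay upstream of hrpu-2, an hnRNP U type gene, with ranks 568 and 1097, and of snr-6, a core snRNP protein gene, with ranks 534 and 1806. At rnp-6, a splice site recognition factor gene, the member had ranks 842 and 1555, and that in the windows of rsp-1 and rsp-2, which encode SR proteins, had ranks 1404 and 1191. Where only the nearest gene of each region counted, 10 of the 16 were left, beside 682 of the 876 member genes overall among coding genes. In the same ranks of a single replicate's list there were 11 genes for replicate 1 and 9 for replicate 2. Over all coding genes these lists had 701 and 713. The same totals stand beside such counts for the lists below.

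Ribosomal protein genes of the cytosol and of the mitochondrion differed in how many had either kind of summit, with 78.3% of the cytosolic and 25.4% of the mitochondrial genes. Of 83 cytosolic ribosomal protein genes, 13 had a member (15.7%) and 52 others had a thresholded summit. Among the 13, rpl-9 had ranks 634 and 461 in a region shared with lpd-7, rpl-30 had 5014 and 1634, and rps-8 had 1746 and 528. The region upstream of rpl-28 and mrpl-49 had rank 1087 in replicate 1 and none in replicate 2. Of 71 mitochondrial ribosomal protein genes, 15 had a member (21.1%, 12.3 to 32.4) and 3 had a thresholded summit. None of the 14 regions behind these 15 genes was in the strongest 2000 of both replicates, and 10 of them stood in the windows of more than 1 coding gene. The strongest, in the windows of mrpl-1 and mrps-24, had rank 381 in replicate 1 and 16814 in replicate 2, and mrpl-47 had rank 417 and no region in replicate 2. Counting only the nearest gene left 9 of the 15 mitochondrial and 8 of the 13 cytosolic genes, beside 682 of all 876 member genes. In the same ranks of a single replicate's list the mitochondrial list had 5 and 7 genes and the cytosolic list 6 and 7.

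Genes of protein breakdown had members at shares over that of all coding genes, although most of them had neither kind of summit (39.4% of proteasome and 25.3% of ubiquitin conjugation genes had either). Of 33 proteasome genes 7 had a member (21.2%) and 6 others a thresholded summit. At pas-5, a core particle subunit gene, the member had ranks 693 and 631, and that upstream of pbs-7, another core subunit gene, had ranks 458 and 2241. Of 75 ubiquitin conjugation genes 14 had a member (18.7%) and 5 a thresholded summit. At ubc-9, the SUMO-conjugating enzyme gene, the member had ranks 641 and 6833, and that at uba-2, which encodes part of the SUMO-activating enzyme, had ranks 719 and 1231. In the same ranks of a single replicate's list the ubiquitin list had 6 and 10 genes and the proteasome list 5 and 3.

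Nuclear pore and transport genes had a share near that of splicing factors, and membrane traffic genes a lower one. Of 43 nuclear pore and transport genes 11 had a member (25.6%, 13.5 to 41.2) and 6 others a thresholded summit. At npp-8, a nucleoporin gene, the member had ranks 752 and 637, that upstream of npp-19, also a nucleoporin gene, had ranks 703 and 1336, and that upstream of imb-2, an importin beta family gene, had ranks 470 and 7604. Counting only the nearest gene left 7 of the 11, beside 682 of all 876 member genes, and single replicates' lists had 8 and 5. Of 129 vesicle traffic genes 17 had a member (13.2%) and 16 a thresholded summit. Its strongest members lay upstream of vps-28, of the endosomal sorting machinery, at ranks 380 and 5126, and of copb-2, a coat protein gene of the Golgi, at ranks 354 and 3593. Oxidative phosphorylation genes had a member in 9 of 52 cases (17.3%), chaperone genes in 11 of 69 (15.9%), translation factor genes in 6 of 48 (12.5%) and cell cycle genes in 10 of 98 (10.2%). In the same ranks of the single lists of replicates 1 and 2 these counts were 5 and 6, 7 and 4, 5 and 3, and 7 and 7. RNA polymerase II and Mediator genes had a member in 9 of 70 cases (12.9%), with an interval above the share of all coding genes. Counting only the nearest gene left 5 of the 9, and the single lists of replicates 1 and 2 had 6 and 6. The machinery lists that follow had intervals that take in the share of all coding genes. Aminoacyl-tRNA synthetase genes had a member in 2 of 31 cases (6.45%, 0.791 to 21.4) and in 0 when only the nearest gene counted. Histone genes had a member in 5 of 84 cases (5.95%, 1.96 to 13.3). These came from 3 regions, each in the windows of 2 or more coding genes. Only 2 of the 5 were left when only the nearest gene counted. Ribosome biogenesis genes had a member in 4 of 34 cases (11.8%, 3.30 to 27.5) and vacuolar ATPase genes in 3 of 21 (14.3%, 3.05 to 36.3).

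Regulatory genes were represented unevenly. Of 159 chromatin regulator genes 13 had a member (8.18%, 4.43 to 13.6) and 26 a thresholded summit. With windows of 500 bp upstream 6 of the 13 were left, beside 660 of all 19985 coding genes. The single lists of replicates 1 and 2 had 8 and 14 chromatin regulator genes. At lin-13, which encodes a zinc finger protein that antagonizes vulval fates, the member had ranks 405 and 690, and that upstream of nurf-1, a nucleosome remodelling factor gene, had ranks 382 and 3765. In a list of 133 zinc finger, bZIP and other transcription factor genes, 11 had a member (8.27%, 4.20 to 14.3) and 1 of these, zip-4, also had a thresholded summit. Among the 11 were zip-2, a bZIP gene of the response to infection, at ranks 474 and 1964, and atf-6, a gene of the unfolded protein response, at ranks 602 and 2462. Nuclear hormone receptor genes had a member in 8 of 274 cases (2.92%) and a thresholded summit in none. The nhr-49 member, at a regulator of fat metabolism, had ranks 797 and 13257. Homeodomain genes had a member in 0 of 104 cases (interval 0 to 3.48%), but in the same ranks of a single replicate's list there were 4 for replicate 1 and 1 for replicate 2.

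Lists of large gene families and of particular tissues were mostly, but not all, under the 4.38% of all coding genes. Chemoreceptor genes had a member in 5 of 1310 cases (0.382%, 0.124 to 0.888), C-type lectin genes in 1 of 240, F-box and MATH-domain genes in 5 of 412 and collagen genes in 3 of 180. In the same ranks of the single lists of replicates 1 and 2, chemoreceptor genes numbered 9 and 15, C-type lectin genes 1 and 4, F-box and MATH-domain genes 5 and 6 and collagen genes 8 and 4. Pharynx genes had 0 of 33 (0 to 10.6%) and major sperm protein genes 0 of 52 (0 to 6.85%). Hypodermis and molting genes had a member in 3 of 159 cases (1.89%), intestine genes in 2 of 71 (2.82%) and germline genes in 5 of 159 (3.14%). Body wall muscle genes, with 3 of 63 (4.76%, 0.993 to 13.3), and cilia genes, with 4 of 74 (5.41%, 1.49 to 13.3), were slightly over the share of all coding genes. Their intervals take in that share. Lists of neuronal genes went both ways. Ion channel and receptor genes had a member in 8 of 383 cases (2.09%, 0.906 to 4.07) and neuropeptide genes in 3 of 148 (2.03%, 0.420 to 5.81), while panneuronal genes had one in 7 of 57 (12.3%, 5.08 to 23.7), with a thresholded summit at 2 others. Besides syd-2 these included rab-3, a synaptic vesicle GTPase gene, at rank 914 in replicate 1, and snb-1, the synaptobrevin gene, at rank 994 in replicate 1. Neither had a region in replicate 2, and 4 of the 7 regions of this list were in both replicate lists. Single replicates' lists had 8 and 3 panneuronal genes. Of 22 heterochronic genes, which time larval development, 4 had a member (18.2%, 5.19 to 40.3): ain-1, alg-5, lep-2 and lin-41. With windows of 500 bp upstream 1 of them was left, and the single lists of replicates 1 and 2 had 2 and 5 heterochronic genes. The alg-5 member, at position -788, also lay in the windows of his-67 and his-68. The lin-41 member, at a translational repressor gene, had ranks 5983 and 956, and that upstream of lep-2, a Makorin-type gene, had ranks 6095 and 870.

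**Figure D5:**
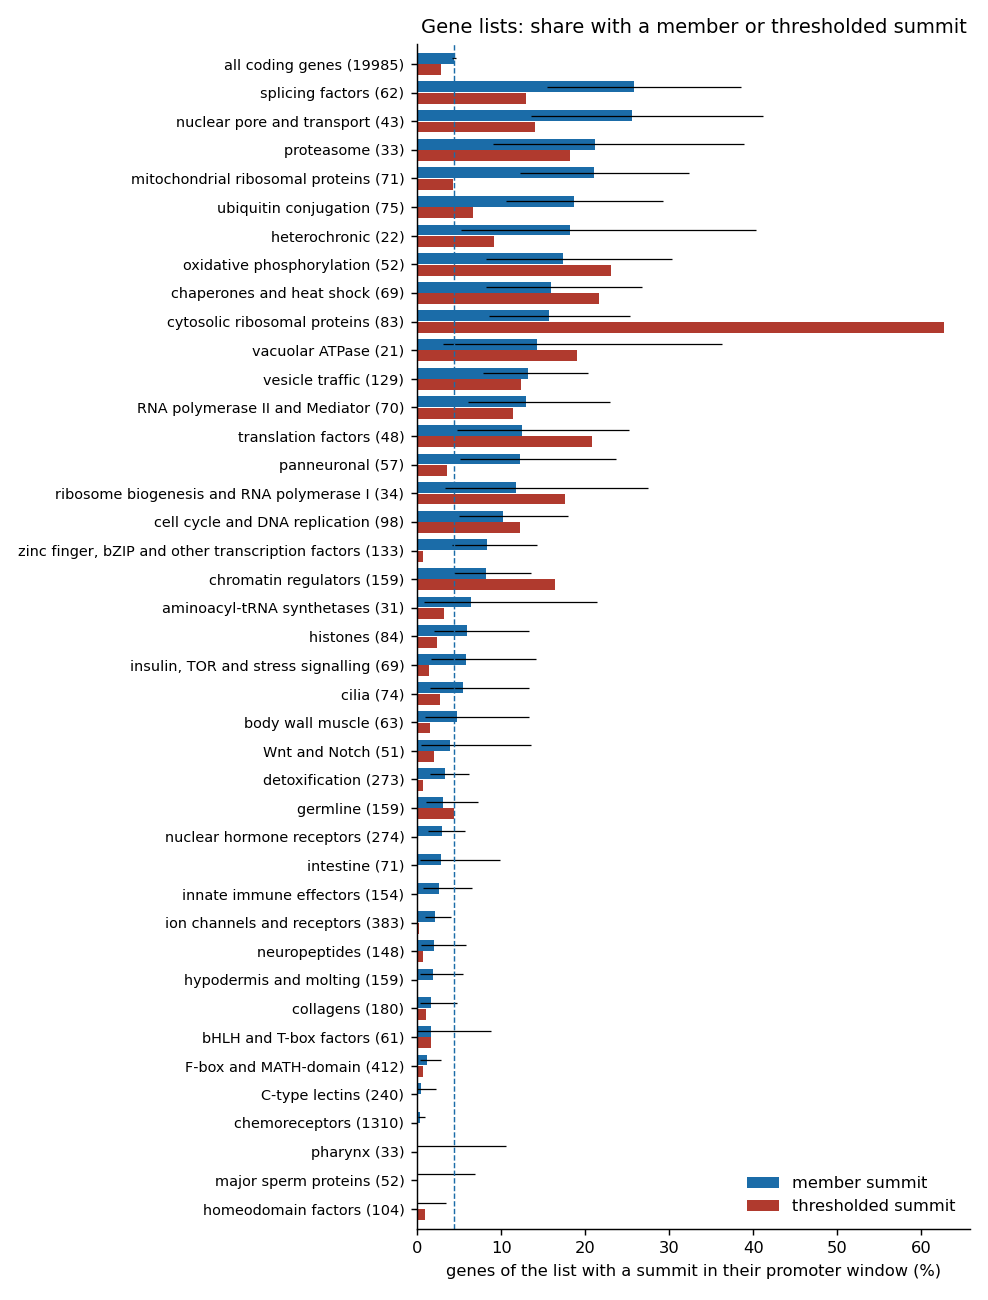
Share of the genes of each list (y axis, number of genes in brackets) with a member summit or a thresholded summit in their promoter window (x axis, %). Thin lines are exact 95% intervals of the member share and the dashed line is the 4.38% of all coding genes. Splicing factors, at 25.8%, and nuclear pore and transport genes, at 25.6%, have the highest shares with these windows, and homeodomain, major sperm protein and pharynx genes are at 0.

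Non-coding genes were counted in the same windows, and their shares are read against the 4.38% of coding genes. A member can also stand in a coding gene's window, as at the snoRNA gene F25H2.15 and pas-5. Neighbouring non-coding genes can share a member, as cel-mir-239a and cel-mir-239b do. Which gene such a member belongs to was not determined. Of 346 snoRNA genes 37 had a member (10.7%, 7.64 to 14.4) and 37 a thresholded summit, with 3 having both. Of 261 microRNA genes 20 had a member (7.66%, 4.74 to 11.6) and 4 a thresholded summit. Near that of coding genes were the shares of tRNA genes, 34 of 634 (5.36%, 3.74 to 7.41), and of snRNA genes, 7 of 129 (5.43%, 2.21 to 10.9). Below it, of 7764 genes annotated only as non-coding RNA 216 had a member (2.78%), of 15363 piRNA genes 200 (1.30%) and of 2128 pseudogenes 17 (0.799%). The strongest member at a microRNA gene, with a pooled signal of 44.8, lay on the X chromosome at position -286 of cel-mir-239a and -760 of cel-mir-239b, and at position 44 inside the snoRNA gene C34E11.20. A member on chromosome III with a signal of 42.7 lay at position -14 of sls-2.16, a gene for the spliced leader SL2, which is joined to messages of downstream operon genes.

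The tagged gene itself was without a region. No pooled region lay within 1000 bp of ZK546.5. The transgenic marker unc-119 had no member or thresholded region within 1000 bp, and the best of 5 pooled regions there had rank 7689.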

How the data were processed

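Peak lists were analysed as deposited, for 2 biological replicates of 1 group. Per the submitters' records, regions were called on each replicate and on both pooled, each with a control library. The authors gave each region a signal, a value whose scale was not given in the sources used. The score was also deposited by the authors, ran from 0.0929 to 1.64 in the members, and was only described. For alignment, peak calling, IDR threshold and sequencing depth, details were not given in the sources used here.

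Ranks were by signal, ties by position. Coordinates are ce11 and genes are Ensembl release 115. Summits were classed as promoter, then coding exon, 5′ UTR, 3′ UTR, non-coding exon, intron and intergenic. Trans-splicing hides many worm transcription starts, which can lie upstream of the 5′ ends used. Shares have exact Clopper-Pearson intervals and no test was made. Members, 40 gene lists, 30 motifs and the 3 words were chosen with earlier results of these data known, and 3 list patterns were corrected afterwards because they took in unrelated symbols. Named are genes at the 20 strongest members, the 10 best supported, the 3 whose ranks differ most, those at the rank limits, up to 4 per list and class, ZK546.5 and unc-119. Counts of 5 or fewer and regions shown for repeats or for genes with both kinds of summit were named after their values were seen. Alternatives were other rank limits, windows, overlaps, builds and each replicate's own list. The steps were tested on simulated data, in Python 3.11.15 with numpy 2.4.6, pandas 2.3.3, scipy 1.17.1 and matplotlib 3.10.9.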

Additional observations from a re-analysis of the deposited data

How the results depend on the processing

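With the lower limit at rank 1000 the members numbered 503, and with it at rank 4000 they numbered 3497. The promoter share was 71.4% and 52.0% under these limits, 48.0% and 73.0% with 500 and 2000 bp upstream, 46.5% with coding transcripts only, and 52.1% to 53.6% from a single replicate's list. Support by replicate 1, replicate 2 and both was 92.1%, 85.4% and 77.5% with 50% of the member covered, 92.0%, 85.3% and 77.4% with the summit inside, and 49.5%, 33.3% and 13.3% in the strongest 2000 regions. It was 98.2%, 94.2% and 92.4% with the limit at rank 1000 and 86.4%, 82.6% and 69.4% with it at rank 4000. In the strongest 19000 regions, support by replicate 2 was 81.4% and by both 75%. Within 25 bp and within 100 bp of the summit, CGCGC was at 8.26% and 21.1% of members, GCGTCTC at 2.20% and 7.92%, and GAGAGA at 7.32% and 22.3%. CGCGC was at 19.8% of promoter members. Wider windows hold a word more often by construction. Another 26 recomputed values stayed within the main interval or, for counts, within 1.5 times, which includes the ce10 build and the number of genes. That number was 701 to 713 from a single replicate's list, but only 424 and 308 of those genes were among the 876, so the genes named depend on pooling. Counts within single gene lists were less stable: 58 recomputed counts moved by more than 1.5 times and 102 did not. The order of the lists moved too, as with the nearest gene only splicing factors had 10 of 62 genes, nuclear pore and transport 7 of 43 and the proteasome 7 of 33. Of 40 lists, 37 stayed on the same side of the share of all coding genes with the nearest gene only. With the single lists of replicates 1 and 2, 32 and 36 of them did. No paired analysis was possible because all samples form 1 group. Read depth was not used here, and 2 replicates limit what rank differences show.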
